A study of Mus musculus with 4 samples.

Results

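The CC chemokine window examined here lies on mouse chromosome 11 and holds 5 chemokine genes, Ccl5, Ccl9, Ccl6, Ccl3 and Ccl4, in that order of position. Its members are the acetylated histone H4 peaks of the 4 libraries that overlap the 180 kb from base 83320001 of chromosome 11 on the mm9 build, a span that was set by position and not by any measured value. There were 131 such peaks among 175801 in the series. Of these, 35 came from untreated wt, 28 from LPS-treated wt, 28 from untreated HDAC3 KO and 40 from LPS-treated HDAC3 KO macrophages.

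The data come from chromatin immunoprecipitation and sequencing with an antibody against acetylated histone H4, in primary bone marrow-derived macrophages from C57BL/6 mice on day 7 of differentiation. The groups called wt are HDAC3 +/-, so these controls carry only 1 intact HDAC3 allele, and the groups called HDAC3 KO are HDAC3 -/-. How the allele was removed, and in which cells, is not given in the sources used here. Cells of each genotype were left untreated or received 100 ng/ml lipopolysaccharide (LPS, a cell wall component of Gram-negative bacteria) for 4 h. Each of the 4 groups had 1 library. Every difference below is therefore a difference between libraries, with no replicate spread to set it against and no test.

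The 5 genes encode secreted ligands that draw leukocytes along a concentration gradient. CCL3 and CCL4 (macrophage inflammatory proteins 1-alpha and 1-beta) and CCL5 (RANTES) are classic products of macrophages that meet bacterial lipopolysaccharide. CCL6 and CCL9 are rodent CC chemokines that macrophages and other myeloid cells make without stimulation, and that are known as ligands of CCR1. Acetylated histone H4 marks active promoters and enhancers, while HDAC3 is a deacetylase that works inside corepressor complexes. The study's question was whether macrophages need HDAC3 for their inflammatory gene program.

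By order in the RefSeq gene table, the protein-coding neighbour before Ccl5 is Heatr9. The pseudogene Ccl16-ps lies between Ccl5 and Ccl9, the non-coding E230016K23Rik between Ccl9 and Ccl6, and the pseudogene Rpl9-ps1 between Ccl6 and Ccl3, while Ccl4 directly follows Ccl3. That table is on GRCm38, a different build from the peaks, so it was used for names and order only. No peak below is assigned to a promoter or a gene body.

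The RefSeq promoter table, on GRCm38.p6, held 3 of the 5 genes: Ccl9, Ccl6 and Ccl3. The 250 bases before each start are shown because they carry what these genes share in sequence; all 3 lie on the minus strand and are written 5′ to 3′ in the direction of transcription. Capitals mark the exact runs of 10 or more bases that Ccl9 and Ccl6 have in common.
Ccl9, chr11:83578637-83578886 (GRCm38.p6): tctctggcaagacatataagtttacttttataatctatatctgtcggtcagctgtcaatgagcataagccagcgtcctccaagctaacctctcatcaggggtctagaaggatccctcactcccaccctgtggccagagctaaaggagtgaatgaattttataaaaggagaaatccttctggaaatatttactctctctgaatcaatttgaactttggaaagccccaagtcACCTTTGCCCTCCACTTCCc
Ccl6, chr11:83593088-83593337 (GRCm38.p6): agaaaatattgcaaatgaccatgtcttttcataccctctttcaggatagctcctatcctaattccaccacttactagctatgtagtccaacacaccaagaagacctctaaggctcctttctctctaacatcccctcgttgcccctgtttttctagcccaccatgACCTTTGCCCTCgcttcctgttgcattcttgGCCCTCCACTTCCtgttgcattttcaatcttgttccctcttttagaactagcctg
Ccl3, chr11:83649379-83649628 (GRCm38.p6): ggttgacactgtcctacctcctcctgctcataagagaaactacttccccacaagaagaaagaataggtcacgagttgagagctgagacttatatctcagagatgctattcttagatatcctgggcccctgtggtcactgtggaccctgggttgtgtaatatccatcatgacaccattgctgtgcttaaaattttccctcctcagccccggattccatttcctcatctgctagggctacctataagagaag

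Ccl9 and Ccl6 shared 2 such runs, of 13 and 12 bases, which overlap in Ccl9 and lie apart in Ccl6. How often other promoters share runs of this length was not counted. The longer run began 14 bases before the start of Ccl9 and 55 bases before that of Ccl6. No run of 10 bases was shared with Ccl3, whose longest run in common with either gene was 8 bases. Of the 6 motifs searched on both strands, 3 had a match in Ccl9. These were the NF-kappaB type motif at 35 to 26 bases before the start, TGANTCA (the AP-1 type, which reads the same on both strands) at 53 to 47, and TATAAA at 92 to 87. That TATAAA match overlaps another on the opposite strand at 94 to 89, and a further one on that strand lies at 224 to 219. No match to these motifs, nor to the interferon response element type, TTGCNNAA (the C/EBP type) or GAGGAAGT (the PU.1 type), was present in the windows of Ccl6 and Ccl3. Over all 32851 entries of the promoter table, 7.25% held the kappaB type motif, 6.75% held TGANTCA and 12.4% held TATAAA. The interferon response element type was in 2.98%, TTGCNNAA in 9.56% and GAGGAAGT in 2.44%. These matches are letters in a window and not measured binding.

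Acetylation over the chemokine window was called over a greater length with LPS in both genotypes. Peaks covered 24.4 kb (13.6% of the window) in untreated wt and 52.8 kb (29.3%) in LPS-treated wt, a ratio of 2.16. In HDAC3 KO they covered 24.7 kb (13.7%) untreated and 71.1 kb (39.5%) with LPS, a ratio of 2.88. Both LPS libraries lay above both untreated ones, and the untreated libraries were nearly equal. The covered length of the whole lists is the yardstick for these ratios, since it depends on depth and on the efficiency of the immunoprecipitation, both of which are unknown. It was 1.06 times higher with LPS in wt and 1.38 times higher in HDAC3 KO. The window thus took 0.0691% and 0.0677% of all covered length in untreated wt and HDAC3 KO, and 0.141% in each LPS library.

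**Figure D1:**
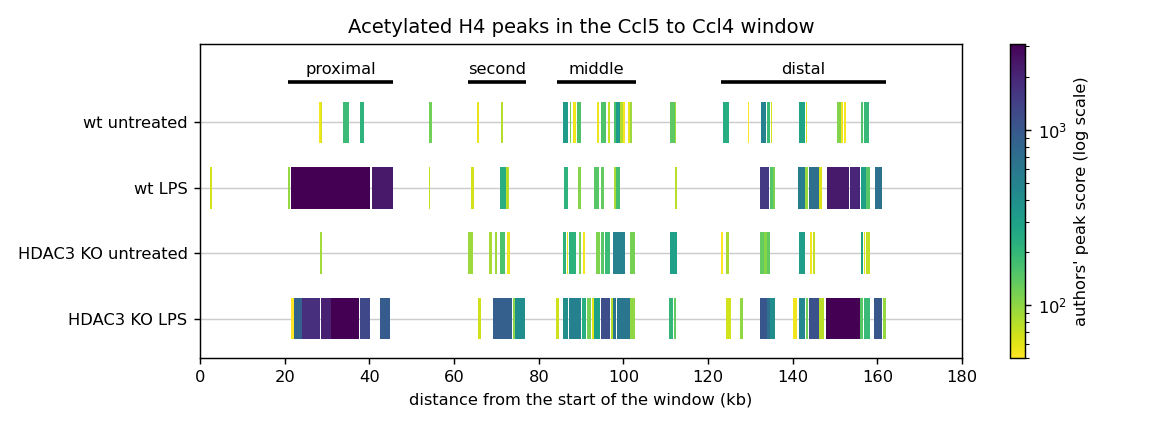
Position of every peak in the 180-kb window, by library, as distance in kb from the window start; colour gives the authors' score on a log scale, and the black bars mark the 4 stretches of at least 10 kb. The proximal stretch is mostly covered in both LPS libraries and mostly uncovered in both untreated ones.

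Peaks were also wider and higher-scored within the LPS lists. The widest peak of the window measured 1540 bp in untreated wt, 9422 bp in LPS-treated wt, 2780 bp in untreated HDAC3 KO and 8019 bp in LPS-treated HDAC3 KO. The median width was 586 and 860 bp in wt and 753 and 1167 bp in HDAC3 KO, untreated and LPS-treated in turn. Over the whole lists it was also higher with LPS, at 590 and 722 bp in wt and 691 and 836 bp in HDAC3 KO. Scores were assigned by the authors on a scale that is not stated, begin at 50.0 in every list, and move with depth and input. Only 1 peak of the window scored 500 or more in each untreated list, against 9 of 28 in LPS-treated wt and 16 of 40 in LPS-treated HDAC3 KO. Across whole lists the share at that score was 8.31% and 9.89% untreated, and 18.1% and 18.3% with LPS, in wt and HDAC3 KO. The lowest and highest scores in the window were 51.3 and 504 in untreated wt, 63.6 and 3100 in LPS-treated wt, 50.4 and 502 in untreated HDAC3 KO, and 50.4 and 3100 in LPS-treated HDAC3 KO.

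To see how unusual such a window is, the genome was cut into 7573 windows of 180 kb with at least 1 peak, placed so that the chemokine window was 1 of them. Covered length at least 2 times higher with LPS, and at least 5 kb, was found in 4.90% of wt windows and 11.0% of HDAC3 KO windows. The chemokine window passed in both. By covered length it ranked 75 untreated and 3 with LPS in wt, and 139 untreated and 4 with LPS in HDAC3 KO, where the median window had 2.60 to 3.53 kb. By the LPS difference in covered length, 28.3 kb in wt and 46.4 kb in HDAC3 KO, it ranked 6 and 2. The windows were ranked as a description, and the chemokine window was proposed for study with results of these data known.

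**Figure D2:**
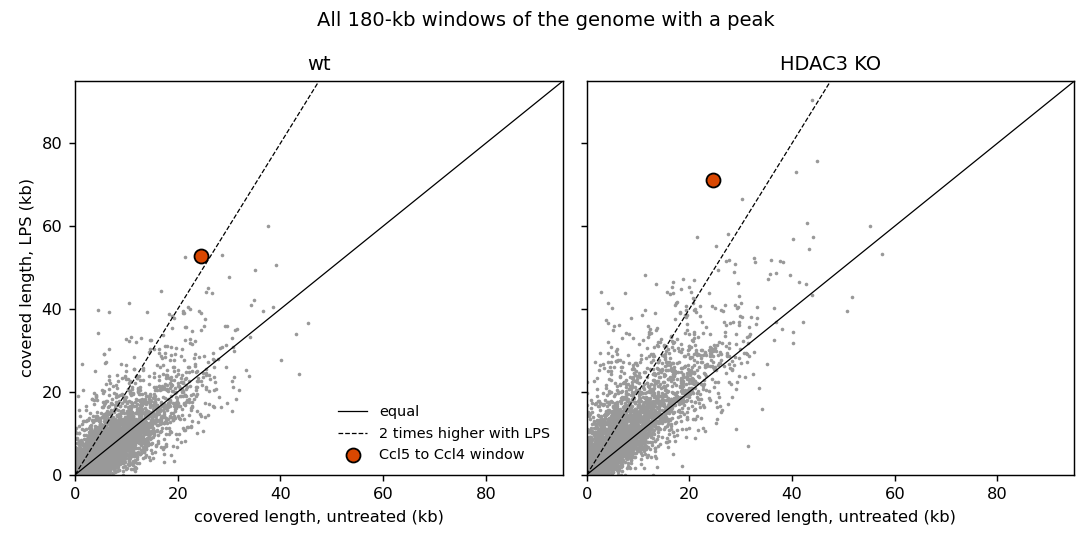
Covered length in kb of every 180-kb window, untreated on the x axis and LPS-treated on the y axis, for wt (left) and HDAC3 KO (right), with the chemokine window as a large point. It lies above the dashed line of a ratio of 2 in both panels, at 24.4 and 52.8 kb in wt and at 24.7 and 71.1 kb in HDAC3 KO.

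The 3 other windows whose covered lengths over the 4 libraries were most like it lay at chromosome 11, 117700001 to 117880000, chromosome 11, 86380001 to 86560000, and chromosome 6, 86380001 to 86560000. Likeness was the Euclidean distance in log2(covered kb + 1) over the 4 libraries, and it was 0.37, 0.40 and 0.46. In the closest of them, untreated and LPS-treated coverage was 28.7 and 53.1 kb for wt, and 30.2 and 66.5 kb for HDAC3 KO.

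The flanks of the window differed from each other. The 180 kb before it, on the Ccl5 side, held little acetylation in any library: 3.90 and 3.51 kb for wt, then 2.01 and 2.44 kb for HDAC3 KO, untreated and with LPS. No peak there scored 500 or more. The 180 kb after it, beyond Ccl4, held 6.57 kb in untreated wt against 22.9 kb with LPS, and 4.11 against 29.4 kb in HDAC3 KO. The LPS ratio was 3.48 and 7.16 after the window and 0.900 and 1.21 before it, in wt and HDAC3 KO. The coverage was not continuous with that of the window, whose last 10-kb bin held no peak in any library.

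**Figure D3:**
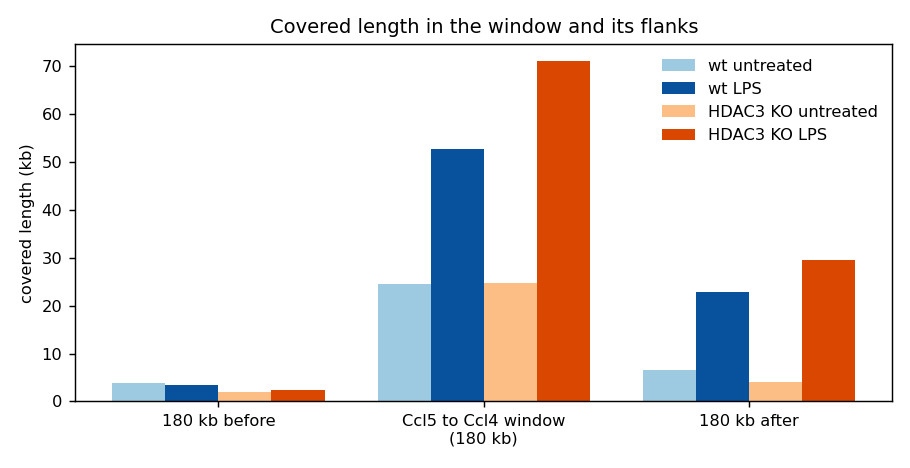
Covered length in kb in the chemokine window and in the 180 kb on each side, 1 bar per library. The flank before the window stays at 2.01 to 3.90 kb, while the window and the flank after it have higher bars in both LPS libraries.

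Within the window the covered length was far from even. When regions separated by gaps of up to 5 kb were joined, a choice made after the positions were seen, 7 stretches resulted and 4 of them were at least 10 kb long. They are called proximal (83340748 to 83365606, 24.9 kb), second (83383367 to 83396859, 13.5 kb), middle (83404171 to 83422800, 18.6 kb) and distal (83443074 to 83482094, 39.0 kb) here, all on chr11 of mm9 in order of rising coordinate. The other 3 were single regions. Those at 83322354 to 83322750 and at 83373959 to 83374663 were called in wt only, the first with LPS alone and the second under both treatments. The region at 83430825 to 83432696 was called in all 4 libraries.

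**Figure D4:**
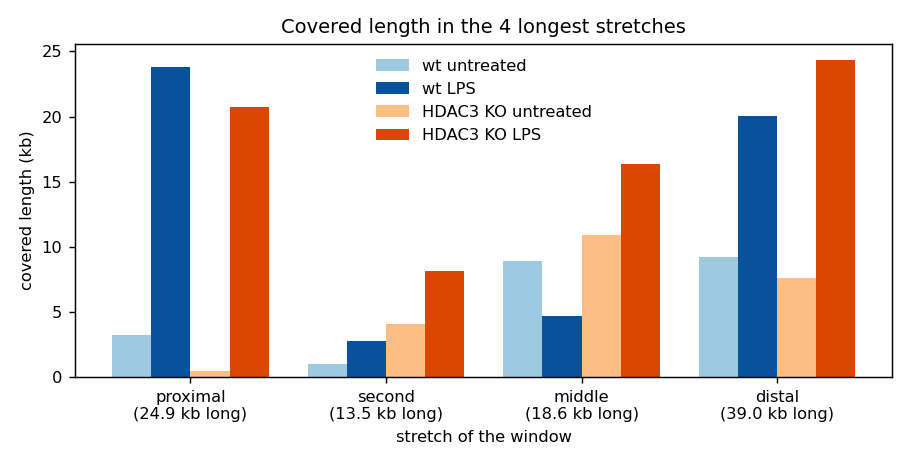
Covered length in kb of the 4 stretches of at least 10 kb, 1 bar per library. The proximal and distal stretches are taller with LPS in both genotypes, whereas the middle stretch is lower with LPS in wt (8.89 to 4.71 kb) and higher in HDAC3 KO (10.9 to 16.4 kb).

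The proximal stretch was mostly uncovered in both untreated libraries and mostly covered in both LPS libraries. Peaks covered 3.21 kb of it (12.9%) in untreated wt and 23.8 kb (95.7%) in LPS-treated wt. In HDAC3 KO the values were 0.510 kb (2.05%) untreated, from 1 peak, and 20.7 kb (83.3%) with LPS. Its LPS difference equalled 72.7% of the net LPS difference of the window in wt and 43.5% in HDAC3 KO. In wt the net difference includes losses elsewhere, with the middle stretch at -14.7% of it. The shares of the 2 genotypes are therefore not like parts of a whole. The LPS differences of the proximal stretch were almost equal, 20.6 kb in wt and 20.2 kb in HDAC3 KO. Of the 4 long stretches, only the proximal was covered less in HDAC3 KO than in wt under both treatments. The differences (HDAC3 KO minus wt) were -2.70 kb untreated and -3.08 kb with LPS. After division by the total covered length of each list the distal stretch was also below wt under both treatments, with HDAC3 KO to wt ratios of 0.799 and 0.902. With peaks scored at least 200, the untreated coverage of the proximal stretch was 1.06 kb in wt and none in HDAC3 KO.

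In LPS-treated wt this stretch consisted of 3 wide peaks and 1 narrow one. The peak at 83341517 to 83350938 was 9422 bp wide and scored 3100, a value that 288 peaks of its list share and that ranked 31 by score. It ranked 6 by width among the 39550 peaks of its list. The next peak, at 83350998 to 83360030, was 9033 bp wide with the same score and ranked 8 by width. The third, at 83360651 to 83365606, was 4956 bp wide and scored 2393. A narrow peak of 388 bp with a score of 95.8 preceded them.

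In LPS-treated HDAC3 KO the same ground was called as 7 shorter peaks, of which the widest, at 83351003 to 83357629, had 6627 bp and a score of 3100. Its right-hand part was shorter. The region at 83360651 to 83365606 had 4956 covered bp with a score of 2393 in LPS-treated wt, against 2477 bp with a score of 953 in LPS-treated HDAC3 KO, and no peak in either untreated library. In untreated wt the stretch held 4 peaks of 302 to 1262 bp with a highest score of 216. The single peak of untreated HDAC3 KO, at 83348364 to 83348873, scored 89.2.

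The distal stretch, at the Ccl3 and Ccl4 end of the window by gene order, also had more coverage with LPS in both genotypes. Coverage was 9.22 kb in untreated wt against 20.0 kb with LPS, a ratio of 2.17. For HDAC3 KO it was 7.59 against 24.4 kb, a ratio of 3.21. With peaks scored at least 200 these ratios were 3.90 and 9.62. The other score limits gave 2.53 to 2.75 in wt and 4.92 to 5.87 in HDAC3 KO. With peaks within 500 bp joined the ratios were 2.01 and 3.08. After division by total covered length they were 2.05 and 2.32, so the genotypes were then closer to each other. The LPS difference of the distal stretch equalled 38.2% of the net LPS difference of the window in wt and 36.1% in HDAC3 KO. Untreated, the highest scores of the distal stretch were 504 in wt and 313 in HDAC3 KO, against 216 and 89.2 in the proximal stretch. The peak with the highest score in untreated wt lay here, at 83452432 to 83453773 with a score of 504, above 91.8% of that list.

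The main LPS block of the distal stretch was the region at 83467967 to 83475985. Its covered length was 1606 bp in untreated wt (highest score 107), 7779 bp in LPS-treated wt (2354), none in untreated HDAC3 KO and 8019 bp in LPS-treated HDAC3 KO (3100). In LPS-treated HDAC3 KO it was 1 unbroken peak that ranked 62 by width in its list. The region directly after it, at 83476013 to 83478271, hardly differed: it covered 1729 and 2140 bp in wt and 1691 and 2020 bp in HDAC3 KO, with scores of 190 to 290. A broad LPS block thus ended directly beside a region that was called in all 4 libraries.

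Other regions of the distal stretch varied in how they differed with LPS. The region at 83452240 to 83455924 covered 2323 and 3481 bp in wt and 2248 and 3515 bp in HDAC3 KO, with highest scores of 504 and 1546, and of 137 and 1034. The region at 83461353 to 83463687 was present everywhere, at 1926 and 2129 bp in wt and at 1283 and 2228 bp in HDAC3 KO. Its neighbour at 83463942 to 83466167 had no peak in untreated wt, 2189 bp in LPS-treated wt, 1123 bp in untreated HDAC3 KO and 2226 bp in LPS-treated HDAC3 KO. Past the last common region, 83479231 to 83481116 was called with LPS only, with 1641 bp and a score of 677 in wt and 1859 bp and 1005 in HDAC3 KO. The small region at 83466185 to 83467287 was likewise called with LPS only, at scores of 63.6 and 77.7. At the near end of the stretch, 83443074 to 83445323 went the other way in wt, with 1366 bp untreated and no peak with LPS. In HDAC3 KO it covered 1241 and 1099 bp.

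The middle stretch moved in opposite directions with LPS in the 2 genotypes. Its coverage in wt was 8.89 kb without and 4.71 kb with LPS, a ratio of 0.530. In HDAC3 KO it was 10.9 kb untreated and 16.4 kb with LPS, a difference of 5.47 kb. It held 14 and 6 peaks in the wt lists and 10 and 12 in the HDAC3 KO lists, and the highest score was 323 and 216 in wt and 502 and 1176 in HDAC3 KO. LPS-treated HDAC3 KO therefore covered 3.48 times the length of LPS-treated wt here, against 1.35 times over the whole window and over the whole lists. With peaks scored at least 200 this ratio was 13.1, from 12.4 kb against 0.944 kb. Under the other score limits and with joining it was 3.22 to 4.41, and after division by total covered length it was 2.58. Among the 2404 stretches of at least 10 kb in the genome, 7.24% were at least 1 kb lower with LPS in wt and at least 1 kb higher in HDAC3 KO. The other 3 long stretches of the window were at least 1 kb higher with LPS in both genotypes, as were 38.1% of all. After scaling by the summed peak length of each list, the LPS ratios of the middle stretch were 0.501 in wt and 1.09 in HDAC3 KO, so the wt value stayed low and the HDAC3 KO value came close to equality.

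Single regions of the middle stretch had the same order. The region at 83417573 to 83422800 had the most covered bp of the window in both untreated libraries. It covered 3633 and 1303 bp in wt and 4043 and 5126 bp in HDAC3 KO, untreated and with LPS. The region at 83414610 to 83416939 covered 1869 and 812 bp in wt and 2097 and 2330 bp in HDAC3 KO. Its score in LPS-treated HDAC3 KO was 1176, above 94.5% of that list, and 135 in LPS-treated wt. At 83407067 to 83410049 the values were 1897 and 564 bp in wt and 2183 and 2949 bp in HDAC3 KO. In each of these regions LPS-treated wt was the lowest of the 4 libraries and LPS-treated HDAC3 KO the highest. The other 2 regions of the stretch with a peak in every library did not have this order. The one at 83405781 to 83407012 covered 944 to 1095 bp throughout, and the one at 83413063 to 83414507 had its lowest value, 456 bp, in untreated wt.

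Just past this stretch, the region at 83430825 to 83432696 also had its lowest value in LPS-treated wt. It covered 1396 and 550 bp in wt and 1620 and 1508 bp in HDAC3 KO, with highest scores of 139 and 77.3, and of 300 and 201. The region at 83410298 to 83411136 was called in both HDAC3 KO libraries and in neither wt library, at 525 bp with a score of 53.0 untreated and 839 bp with 238 with LPS. The reverse, a call in wt alone under both treatments, was found at 83373959 to 83374663, with 679 bp (score 121) untreated and 467 bp (72.6) with LPS. These were the only 2 regions of the window with the same genotype difference in calls under both treatments.

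The second stretch had more coverage in HDAC3 KO than in wt under both treatments. Its wt coverage was 1.05 and 2.81 kb, and its HDAC3 KO coverage 4.05 and 8.13 kb, untreated and with LPS. HDAC3 KO covered 3.87 times the length of wt untreated and 2.90 times with LPS. Peaks were then limited to the median score or above, to the 20000 highest-scored or to scores of at least 100 or 200. The ratio with LPS was at least 4.69 under each limit. Untreated wt had no peak left in the stretch, so no untreated ratio could be formed. After division by total covered length the ratios were 3.76 untreated and 2.15 with LPS. The widest region of the stretch, at 83389137 to 83393674, was 1 unbroken peak of 4538 bp with a score of 897 in LPS-treated HDAC3 KO. It covered 551 bp in untreated wt, 2186 bp in LPS-treated wt and 2143 bp in untreated HDAC3 KO. The peak beside it at 83394470 to 83396859, of 2390 bp and a score of 414, was in LPS-treated HDAC3 KO only.

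**Figure D5:**
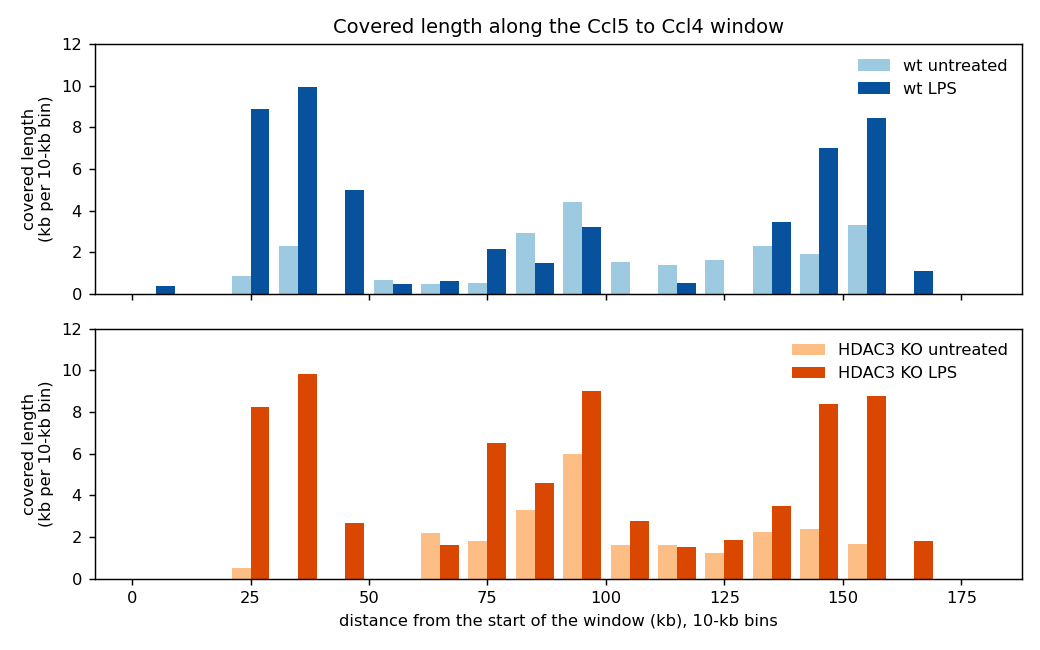
Covered length in kb in each 10-kb bin along the window, untreated (light) and LPS-treated (dark), for wt above and HDAC3 KO below. LPS bars are higher in both genotypes at both ends of the covered part, whereas bins of the middle stretch are lower with LPS in wt and higher in HDAC3 KO.

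In 10-kb bins the same layout appeared without any joining of peaks. Of 18 bins, 8 had more coverage with LPS in both genotypes, 1 had less in both, 4 had less in wt and more in HDAC3 KO, 1 had more in wt and less in HDAC3 KO, and 2 had none in any library. The remaining 2 were covered in wt only. How often bins of the genome fall in each of these classes was not counted, so the counts describe the window alone. The 4 bins with less in wt and more in HDAC3 KO were 83400001 to 83410000, 83410001 to 83420000, 83420001 to 83430000 and 83440001 to 83450000. In the second of these, untreated and LPS-treated coverage was 4.42 and 3.20 kb for wt, and 5.99 and 9.02 kb for HDAC3 KO. The highest bin of the window was 83350001 to 83360000, in the proximal stretch. It had 2.32 and 9.94 kb in wt, and none and 9.80 kb in HDAC3 KO.

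Merging peaks of the 4 lists that shared at least 1 bp gave 35 regions in the window. Every library had a peak in 11 of them (31.4%), against 28.5% of the 62522 regions of the genome. With LPS, 7 of the 24 wt regions (29.2%) had a peak in the treated library only, against 21.7% over all regions, and 3 (12.5%) had one in the untreated library only, against 30.5%. In HDAC3 KO, 15 of 31 regions (48.4%) were called with LPS only, against 33.5%, and 2 (6.45%) when untreated only, against 19.3%. LPS-treated HDAC3 KO was the only library with a peak in 9 regions of the window (25.7%), against 14.5% of all regions. These 9 covered 449 to 2390 bp each and scored at most 414. Shares called with LPS only were above those of the genome in both genotypes, and shares called untreated only were below, on counts this small and with no test.

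Regions called under both treatments were also compared by covered length. Of 14 such regions in wt, 5 (35.7%) covered at least 2 times the length with LPS and 4 (28.6%) covered at least 2 times the length untreated. Over all regions these shares were 10.9% and 6.53%. The 4 lower ones were 83407067 to 83410049, 83414610 to 83416939, 83417573 to 83422800 and 83430825 to 83432696. In HDAC3 KO, 2 of 14 (14.3%) covered at least 2 times the length with LPS, close to the 13.1% over all regions. None did so untreated, against 2.99%. The 5 regions of wt included 83350998 to 83360187 and 83467967 to 83475985, with 9033 and 7779 bp with LPS. Untreated HDAC3 KO had no peak in these 2, so they were not among its 14. With LPS they covered 9146 and 8019 bp in HDAC3 KO. The median covered ratio in regions called under both treatments was 1.17 in wt and 1.36 in HDAC3 KO, and over all regions 1.06 and 1.14.

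The loss of HDAC3 was compared at each treatment. Untreated, HDAC3 KO covered 1.01 times the length of wt. A length at least 2 times that of wt, and at least 5 kb, was found in 1.02% of windows. The untreated libraries did not cover the same bases. They shared 15.4 kb, which was 62.9% of the covered length of wt and 62.3% of that of HDAC3 KO. Of 21 regions, 4 (19.0%) were called in HDAC3 KO only and 5 (23.8%) in wt only, against 18.3% and 26.7% over all regions. Of the 12 regions called in both, 2 (16.7%) covered at least 2 times the length in HDAC3 KO, against 6.93%, and none did so in wt, against 4.28%. The near equality of the sums was made of differences of both signs. HDAC3 KO minus wt was -2.70 kb in the proximal and -1.64 kb in the distal stretch, and 3.01 kb in the second and 2.02 kb in the middle stretch.

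With LPS, HDAC3 KO covered 1.35 times the length of wt, the same ratio as over the whole lists. The difference of 18.3 kb ranked 52 of 7573 windows. The window was not among the 7.24% with at least 2 times, or the 15.5% with at least 1.5 times, the covered length in HDAC3 KO. Both shares also required at least 5 kb in HDAC3 KO. Of 33 regions, 12 (36.4%) were called in HDAC3 KO only and 4 (12.1%) in wt only, against 31.1% and 15.5%. Of the 17 regions called in both, 5 (29.4%) covered at least 2 times the length in HDAC3 KO, against 10.4% over all regions, and 1 (5.88%) did so in wt, against 1.87%. The 5 were the region of the second stretch at 83389137 to 83393674 and the 4 that were lower with LPS in wt. Coverage by LPS-treated wt was largely contained in that of LPS-treated HDAC3 KO, which held 89.6% of it, while 23.8 kb was covered in HDAC3 KO only and 5.51 kb in wt only.

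Counted by base, 29.1 kb of the window was covered in both LPS libraries and neither untreated one, 16.2% of its length. Another 9.77 kb was covered in all 4 libraries. LPS-treated HDAC3 KO alone covered 13.3 kb and LPS-treated wt alone 4.44 kb. Bases covered in both untreated libraries and neither LPS one came to 0.261 kb. Of the bases covered in untreated cells, 64.9% were still covered with LPS in wt and 87.2% in HDAC3 KO. Shares by base, here and in the genotype comparisons above, were computed for the window alone. They therefore do not show a trait particular to it. Over all regions of the genome, the share called untreated only was also higher in wt (30.5%) than in HDAC3 KO (19.3%).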

How the data were processed

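Histone H4 acetylation was measured by ChIP-seq in 4 libraries, 1 for each combination of genotype and treatment. Bowtie and the mm9 build are named in the submitters' processing notes. Per the file headers, the authors called the peaks of each library with MACS over an input. Versions, settings and the input used are not given in the sources used here. Each deposited list gives a start and an end per peak and the authors' score, whose scale is not stated. Read depth is unknown, so no interval or limit of detection could be given.

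Covered length is the sum of peak widths in the window. Peaks of the 4 lists sharing at least 1 bp were merged into regions. Positions are counted from 1. The regions named are the 5 with the highest score and the region with the most covered bp in each list. Also named are those whose calls differ with LPS in both genotypes or with genotype under both treatments. Other regions, and the stretches joined across gaps of up to 5 kb, were chosen after their values were seen. The members and lists were chosen with earlier results of these data known. Alternatives were other score limits, joining, scaling, window edges, window phase and a 50% overlap. The counting code was run on simulated lists: 28 of 28 counts were recovered exactly over 62522 regions. Each simulated peak spanned a whole merged region. Partial overlaps, joined stretches, the 50% rule and the calls of at least 2 times the length were therefore not exercised. The planned checks of other chemokine and receptor genes, cell type markers and protein sequences were not run, since no mm9 annotation and no protein table was used here, so the labelled cell type and the HDAC3 deletion were not checked. Scripts ran in Python 3.11.15 with pandas 2.3.3, numpy 2.4.6 and, for plots, matplotlib 3.10.9.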

Additional observations from a re-analysis of the deposited data

Results flagged for a closer look

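The LPS difference in covered length of the middle stretch (83404171 to 83422800) had opposite signs in the genotypes, -4.18 kb in wt and 5.47 kb in HDAC3 KO. This difference was not tested, since each group had 1 library. Total covered length differed by 1.06 times with LPS in wt and by 1.38 times in HDAC3 KO, and its part in the result was not tested beyond the division by total covered length given above.

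In the second stretch, 2 small regions had opposite calls with LPS in the genotypes, also untested. At 83383367 to 83384609 the difference was 619 bp in wt and -1007 bp in HDAC3 KO, with scores of 65.0 and 90.8 where a peak was called. At 83385418 to 83386400 it was -496 bp in wt and 753 bp in HDAC3 KO, with scores of 57.2 and 67.3. The lowest score in every list is 50.0.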

How the results depend on the processing

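No paired analysis was possible because each group had 1 library, and for the same reason no library could be left out. The LPS ratios of the window stayed above 2 in both genotypes under every alternative run. With peaks at or above the median score, the 20000 highest-scored peaks, and peaks scored at least 100, the LPS ratio was 2.99, 3.37 and 2.92 in wt and 4.51, 4.46 and 3.72 in HDAC3 KO. The HDAC3 KO to wt ratio was 0.862, 0.972 and 1.02 untreated and 1.30, 1.29 and 1.31 with LPS. With peaks scored at least 200, chosen after seeing the data, these 4 ratios were 5.92, 6.76, 1.19 and 1.36. With peaks within 500 bp joined the LPS ratios were 2.03 and 2.83 and the untreated genotype ratio 0.969. With the window widened by 20 kb on each side the 4 ratios were 2.22, 2.85, 1.03 and 1.32, and narrowed, the LPS ratios were 2.10 and 2.81. After division by total covered length they were 2.04, 2.08, 0.980 and 1.000. The untreated genotype ratio thus changed direction, and with LPS the genotype ratio went to 1.000, since the total covered length differs by the same factor. The same division turned the genotype ratio of the distal stretch with LPS from 1.22 to 0.902. The LPS ratio of the middle stretch stayed at 0.501 to 0.852 in wt and at 1.09 to 2.42 in HDAC3 KO under the alternatives run.

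Counts of regions are small and depended on the peaks used. Those given next differed from the deposited count by more than 1.5 times or were 0. Smaller moves also occurred. With the 50% rule, regions called with LPS only numbered 10 in wt and 16 in HDAC3 KO, against 30.0% and 41.3% over all regions. LPS-treated regions in HDAC3 KO only numbered 16 with that rule, against 38.6%. Regions called in all 4 libraries numbered 11 as deposited, 5 with the median score limit, 5 with the 20000 highest-scored peaks, 7 with scores of at least 100, 7 with joining and 4 when 50% of a region had to be covered. Regions called with LPS only numbered 3 with joining in wt, and 9, 9 and 4 with the median limit, the 20000 highest and joining in HDAC3 KO. Over all regions these settings gave 17.0% in wt, and 29.5%, 26.3% and 27.6% in HDAC3 KO. Regions called untreated only numbered 5 with the median limit and 7 with the 50% rule in wt. In HDAC3 KO they numbered 0 with each of the 3 score limits and 1 with joining. Untreated, regions in HDAC3 KO only numbered 1, 2, 2 and 1 with the median limit, the 20000 highest, scores of at least 100 and joining, and regions in wt only 3, 2, 3 and 3 with the median limit, the 20000 highest, joining and the 50% rule. With LPS, regions in HDAC3 KO only numbered 5, 5, 6 and 4 with the median limit, the 20000 highest, scores of at least 100 and joining. Over all regions the shares were 26.4%, 20.6%, 28.3% and 25.8%. LPS-treated regions in wt only numbered 0 with each of the 3 score limits. The total of window regions under each setting is not given here, so these counts cannot be read as shares beside those of the genome.

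The genome shares moved as well. For windows they again required at least 5 kb in the higher library. Windows at least 2 times higher with LPS were 7.97% in wt with the 20000 highest-scored peaks and, after that same division, 5.24% in HDAC3 KO. Windows at least 2 times higher in HDAC3 KO were, untreated, 1.54%, 2.76% and 1.55% with the 3 score limits, and with LPS 2.84% after the division. Regions called in LPS-treated HDAC3 KO and not in LPS-treated wt were 20.6% with the 20000 highest-scored peaks. Except for the 2 divisions, the cause of these moves was not tested beyond the fewer peaks or wider joins that each setting brings.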
